A study of Mus musculus with 2 samples.

Results

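T cells were looked for among bone marrow cells that had been sorted as monocytes. T barcodes were chosen by the measured RNA of 6 genes: a cell barcode of the single-cell libraries was taken when it held at least 2 unique molecular identifiers (UMIs, each standing for 1 captured transcript) summed over Cd3d, Cd3e, Cd3g, Trac, Trbc1 and Trbc2, the genes of the CD3 subunits and of the constant parts of the alpha and beta T cell receptor (TCR) chains. This rule found 51 T barcodes among 825 barcodes of severe aplastic anemia (SAA) mice and 4 among 798 barcodes of radiation control (RC) mice, 55 of 1623 in all. SAA mice were F1 hybrids of C57BL/6 and BALB/c that received 300 rads and then 65000000 B6 splenocytes, while RC mice were the same hybrids given 300 rads alone. In each condition, live (7-AAD-) CD11b+Ly6C+Ly6G- cells of whole marrow were sorted and the cells of 3 mice were pooled into 1 library, so there were no replicates, no test between conditions or between groups of barcodes was made, and condition and library cannot be told apart. The irradiated F1 host keeps marrow and lymphoid cells of its own, and whether a T barcode came from the B6 donor or from the host was not analysed here. The age of the mice is not given in the sources used here.

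T cells carry a receptor made of a rearranged alpha and beta chain that signals through the CD3 subunits. CD8 T cells see peptides on MHC class I and kill through perforin and granzymes, and once activated they secrete interferon gamma and chemokines. CD4 T cells see peptides on MHC class II. In immune aplastic anemia, activated T cells and their interferon gamma are known to take part in the loss of marrow cells. CD11b and Ly6C, which define the sort gate, mark monocytes and other myeloid cells, but activated CD8 T cells are also known to carry Ly6C.

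The T barcodes were 6.18% of the SAA barcodes (exact Clopper-Pearson 95% interval 4.64 to 8.05) and 0.501% of the RC barcodes (0.137 to 1.28). All intervals given here cover counting error only and not the spread between mice. In the SAA library a T barcode held a median of 16 UMIs of the 6 genes and at most 60. Of the 51 SAA T barcodes, 16 held all 6 genes, 13 held 5, 10 held 4, 3 held 3, another 3 held 2, and 6 held a single one of them. These 6 genes chose the barcodes, so their values are a description. Cd3e (GRCm38 chromosome 9, 44998740 to 45009627) had 216 UMIs in 37 T barcodes and 1 UMI in the other 774 SAA barcodes. Trac (chromosome 14, 54220521 to 54224206) had 139 UMIs in 40 T barcodes and Cd3g had 88 UMIs in 37, and neither had a UMI in any other SAA barcode. Trbc2 had 225 UMIs in 44 T barcodes against 4 UMIs in 4 other barcodes, and Trbc1 had 102 UMIs in 24 T barcodes against 3 UMIs in 3 others. Cd3d differed from the rest: it had 188 UMIs in 40 T barcodes but also 25 UMIs in 25 other SAA barcodes.

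Cd3d alone did not pick out T cells. In the RC library Cd3d had 42 UMIs in 36 barcodes, 9 of them in 3 of the 4 RC T barcodes, while Cd3e, Cd3g, Trac and Trbc2 had none. The share of UMIs from 24 monocyte and granulocyte genes (among them Lyz2, S100a8 and Ngp) was used as a measure of myeloid RNA, and a barcode was called rich in it at or above 1.38%, the 10th percentile of the other SAA barcodes, whose median was 17.8%. All 28 SAA barcodes and all 36 RC barcodes whose only rule gene was Cd3d were rich in myeloid RNA. Among the T barcodes this concerned 3 of the SAA library, at 22.5 to 33.5%, and 3 of the RC library, at 38.7 to 55.1%. These 6 barcodes go against the name of a T cell. A further SAA T barcode held both kinds of RNA, with 19 UMIs of the 6 genes, 5 of Cd8a and 6 of Cd8b1 beside 684 of S100a8, 166 of Ngp and 58 of Lyz2, and 14.7% of its UMIs came from the myeloid genes. The other 47 SAA T barcodes had 0 to 0.200% myeloid UMIs (median 0.0256), so that the 2 kinds of barcode did not overlap. No doublet caller was run, and whether the mixed barcode held 2 cells was not tested. Values are given for all 51 SAA T barcodes and, where the 4 barcodes rich in myeloid RNA matter, also for the 47 without them.

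**Figure D1:**
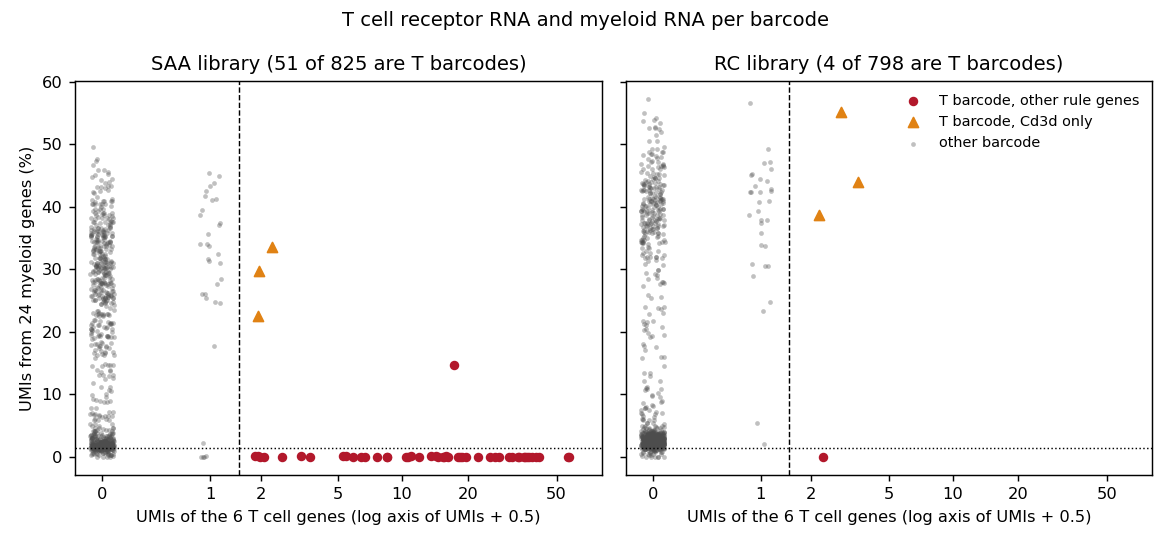
Each point is a barcode, with the UMIs of the 6 T cell genes on the x axis (log axis of UMIs + 0.5, points spread sideways) and the percent of UMIs from 24 myeloid genes on the y axis, for the SAA library on the left and the RC library on the right. The dashed line marks the rule of 2 UMIs and the dotted line 1.38% myeloid UMIs: 47 of the 51 SAA T barcodes lie at the bottom at 0.200% or less, and the 3 Cd3d-only T barcodes of each library (triangles) lie among the myeloid barcodes.

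The only RC T barcode that was poor in myeloid RNA held 2 UMIs of Trbc1, 11 of Gzma, 1 of Gzmb, 1 of Ncr1 and 1 of Trdc among 1654 UMIs, and none of Cd8a or Cd8b1. At the edge of the rule, 7 SAA barcodes held exactly 2 UMIs of the 6 genes. Of these, 3 were the Cd3d-only barcodes above. Just outside it, 33 SAA barcodes held exactly 1 UMI, which was Cd3d in 25 of them. Their median myeloid share was 32.5%, and 4 of them were poor in myeloid RNA. With a minimum of 5 UMIs, 41 SAA barcodes and none of the RC barcodes would have been taken.

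The SAA T barcodes held 248273 UMIs in all and the other SAA barcodes 5343992. A T barcode had a median of 3902 UMIs (518 to 18432), against 6006 in the other SAA barcodes, and a median of 2.13% mitochondrial UMIs, against 1.71%. The filter that the study applied, at least 1000 genes and at most 25% mitochondrial RNA, would keep 43 of the 51. The SAA library held 5592265 UMIs and the RC library 4066589, and 1 barcode sequence occurred in both. Because the T barcodes were shallower, shares of barcodes with a UMI were also taken after each barcode had been thinned to 2000 UMIs, which left out 9 SAA T barcodes and 72 other SAA barcodes. Levels are given as UMIs summed over barcodes per 1000000 UMIs (CPM), and a difference is the ratio of CPM, SAA T barcodes over other SAA barcodes, with its exact conditional 95% interval. Where the other barcodes had no UMI, the ratio is a lower bound against 3 UMIs over the group.

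Most T barcodes held RNA of the CD8 co-receptor, and none held Cd4 RNA. Of the 51 SAA T barcodes, 37 (72.5%, 58.3 to 84.1) held a UMI of Cd8a or Cd8b1, the chains of the CD8 co-receptor, and 33 of the 37 held both. Without the 4 barcodes rich in myeloid RNA it was 36 of 47 (76.6%, 62.0 to 87.7). Cd8b1 (chromosome 6, 71322788 to 71337494) had 173 UMIs in 36 T barcodes, with at most 14 in one, and none in the other 774 SAA barcodes (697 CPM in T barcodes, at least 1241-fold higher). Cd8a (chromosome 6, 71373427 to 71379173) had 113 UMIs in 34 T barcodes against 1 UMI in the others, 455 CPM against 0.187 CPM. Cd4 had 0 UMIs in 51 T barcodes, which allows a share of up to 5.88% of barcodes with a UMI, and 0 in every other barcode of both libraries. Foxp3, the factor of regulatory T cells, and Cxcr5 were also at 0 in T barcodes. Zbtb7b, which drives the CD4 fate, had 4 UMIs in T barcodes and 256 in other SAA barcodes, and it had 1 UMI in the 47 T barcodes poor in myeloid RNA. Of the 11 genes of the CD4 list, 4 were at 0 in T barcodes and 2, Zbtb7b among them, were at least 2-fold lower. Gata3, Il2ra and Tnfrsf4 of this list went the other way, with log2 ratios of 6.43, 4.84 and 3.69 from few UMIs. Those of Gata3 and Il2ra are lower bounds. Summed, the list had 29 UMIs in T barcodes against 351, a ratio of 1.78 (1.17 to 2.60).

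The signalling proteins and surface markers that T cells share were found in the same barcodes and hardly outside them. Thy1, a surface protein of mouse T cells, had 129 UMIs in 37 T barcodes against 1 UMI in the other SAA barcodes. Lck, the kinase that starts TCR signalling, had 77 UMIs in 36 T barcodes against 5 UMIs in 3 others. Cd2 had 61 UMIs in 28 T barcodes and none in others, and Cd28, the co-stimulatory receptor, had 53 UMIs in 23 against 1 UMI. Over all genes, 8005 genes had at least 40 UMIs in the SAA barcodes together and were compared. Of these, 1205 (15.1%) were at least 2-fold higher in T barcodes and 1264 (15.8%) at least 2-fold lower, and the median log2 ratio was 0.14. Counts over gene lists are to be read against these shares. With barcode groups scaled by the median of gene ratios instead, 943 genes were higher and 1497 lower. In the pan T cell list 8 of 17 genes reached 40 UMIs and all 8 were higher, with a median log2 ratio of 8.71. Such a gene, rare in myeloid cells, reaches 40 UMIs only through the T barcodes and then has to be higher, so the counts over T cell lists are a description. The 9 genes that missed the minimum included Bcl11b, a factor of T cell commitment, with 24 UMIs in 17 T barcodes, and Skap1, with 26 UMIs in 14, both at 0 in the other SAA barcodes.

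Few T barcodes could be read at the variable segments of the receptor. The 10x 5′ reads start at the end of the transcript that holds the variable segment, but these are gene counts and not assembled receptors. A UMI of an alpha variable (Trav) segment occurred in 14 SAA T barcodes (27.5%) and in 0 of the other 774, and a beta variable (Trbv) segment occurred in 13 T barcodes (25.5%) and in 1 of the others (0.129%). They were spread over 9 of the 128 Trav and 9 of the 35 Trbv segments in the files. Trav3-3 and the gamma segment Trgv2 were found in 4 T barcodes each, Trbv13-1 and Trbv29 in 3 each. Near-identical segments such as Trav16 and Trav16n, with 2 T barcodes each, may share reads. Exactly 1 Trav and 1 Trbv segment could be read in 5 T barcodes, which gave 5 different pairs, too few to say whether T barcodes shared a receptor. Of the gamma and delta TCR genes listed, the 3 found in the files (Trdc, Trdv4 and Trgv2) had 7 UMIs in T barcodes and 2 in the other SAA barcodes, too few for a comparison, and the segment Trdv2-2, which was not listed, had 2 UMIs in 1 T barcode.

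**Figure D2:**
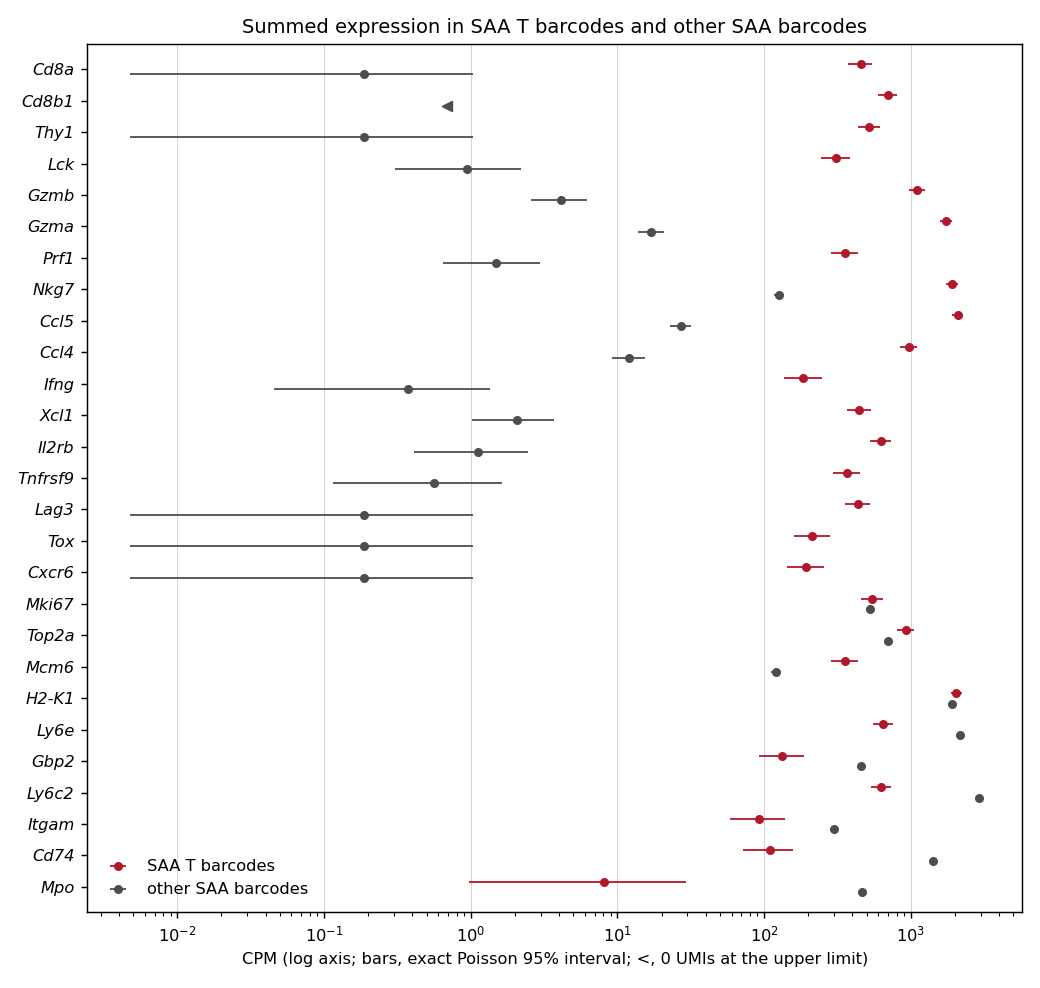
Summed expression of 27 genes in SAA T barcodes (red) and other SAA barcodes (gray) in CPM on a log axis, with exact Poisson 95% intervals and a left-pointing mark at the upper limit where a group had 0 UMIs. T cell, cytotoxic, cytokine and inhibitory receptor genes lie far to the right in T barcodes (Gzmb 1104 CPM against 4.12 CPM), Mki67 lies at the same level in both (544 CPM against 526 CPM), and gate and myeloid genes lie lower in T barcodes (Ly6c2 628 CPM against 2910 CPM).

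Cytotoxic genes were high in most T barcodes. Gzmb (chromosome 14, 56258838 to 56262260), the granzyme that triggers apoptosis of the target, had 274 UMIs in 33 T barcodes against 22 UMIs in 5 other SAA barcodes, 1104 CPM against 4.12 CPM, a ratio of 268 (174 to 435). The log2 ratio of Gzmb was 8.07, against 11.54 under the cell filter of the study and 5.96 with barcodes weighted equally. After thinning, 57.1% of T barcodes and none of the others had a Gzmb UMI. Prf1, the pore-forming perforin, had 88 UMIs in 29 T barcodes against 8 UMIs in 1 other barcode (ratio 237, 115 to 566). The log2 ratio of Prf1 was 7.89, against 5.96 with at least 5 rule UMIs and 9.21 under the cell filter of the study. Nkg7, a protein of cytotoxic granules, was the gene of this list found in the most barcodes: it had a UMI in 47 of the 51 T barcodes, and after thinning in 88.1% of T barcodes against 12.5% of the others (1917 CPM against 126 CPM). Of the 11 genes of the cytotoxic list that were compared, 9 were at least 2-fold higher in T barcodes and 1 was lower. Over all genes 15.1% were higher and 15.8% lower. Gzmb and Prf1 reached 40 UMIs only through the T barcodes and had to be higher, so this count is a description. Srgn, which packs granules in myeloid cells too, had a ratio of 1.10 (0.874 to 1.36). The lower one was Lamp1, a lysosome membrane protein, with 17 UMIs against 2183. Fasl, the ligand of the death receptor Fas, had 14 UMIs in 11 T barcodes against 1 UMI, and Gzmk had 22 UMIs in 10 T barcodes and none in others. Gzmc and Gzmm had none in T barcodes. In all, 41 T barcodes (80.4%, 66.9 to 90.2) held a UMI of Gzma, Gzmb or Prf1, and 14 held all of these.

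Gzma did not follow this pattern. This granzyme had 431 UMIs in 25 T barcodes against 91 UMIs in 3 other SAA barcodes, but 48.5% of the T barcode UMIs came from the 3 barcodes with the most, of which one held 93. The 4 T barcodes that held Ncr1, the NK cell receptor NKp46, had 93, 56, 48 and 14 UMIs of Gzma. Without these 4 barcodes the log2 ratio of Gzma was 5.77 in place of 6.67, an alternative chosen after the data had been seen, and it was 4.50 with at least 5 rule UMIs, 5.13 with barcodes weighted equally and 11.53 under the cell filter of the study.

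The T barcodes without CD8 RNA were of several kinds. Of the 14, 3 were the Cd3d-only barcodes rich in myeloid RNA, 4 held Ncr1, and the other 7 held neither. None of the 37 CD8 T barcodes held Ncr1, and 1 of the 774 other SAA barcodes did. The 4 Ncr1 barcodes had 2, 2, 2 and 7 UMIs of the 6 rule genes, and none had a UMI of Cd3d. They held 211 UMIs of Gzma together, 17647 CPM against 1139 CPM in the 43 other T barcodes poor in myeloid RNA, and each held Gzmb and Prf1. They also held 22 UMIs each of Tyrobp and Fcer1g, signalling adaptors of NK and myeloid cells (1840 CPM of each, against 99.2 CPM of Tyrobp and 78.3 CPM of Fcer1g). Lag3, Pdcd1, Tox and Ly6a were at 0 in them, against 522 CPM of Lag3 and 272 CPM of Tox in the 43 others. With 11957 UMIs in all, a count of 0 allows up to 309 CPM (exact Poisson). These 4 barcodes carried RNA that marks NK cells, and for 3 of them the name of a T cell rests on 2 UMIs. The single RC T barcode poor in myeloid RNA also held Ncr1 and Gzma. Of the 7 others, 3 had 8 to 32 UMIs of the 6 genes and held Lag3, 2 with 3 and 2 rule UMIs had 15 and 60 UMIs of Gzma, and the remaining 2 had 6 and 3 rule UMIs and no UMI of Gzma, Gzmb or Lag3. NK-type RNA was not limited to the 4 Ncr1 barcodes. The 11 T barcodes poor in myeloid RNA and without CD8 RNA held 38 UMIs of Tyrobp in 6 and 30 of Fcer1g in 6. Some of the 7 others therefore held these genes too. The 36 with CD8 RNA held 3 UMIs of Tyrobp in 2 and 7 of Fcer1g in 5.

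Over the NK cell list, 5 of 14 genes were compared. The C-type lectin receptors Klrc1, Klrd1 and Klrk1, which activated CD8 T cells share with NK cells, were higher in T barcodes, with 51, 52 and 35 UMIs against 1, 3 and 132 UMIs in the other SAA barcodes. Klrc1 and Klrd1 reached 40 UMIs only through the T barcodes and had to be higher, so their direction is a description. Over all genes 15.1% were higher and 15.8% lower. Tyrobp and Fcer1g were lower, with log2 ratios of -1.97 and -1.80. With at least 5 rule UMIs the log2 ratios of Tyrobp and Fcer1g were -3.86 and -3.66. Klrc1 was at 418 CPM (136 to 976) in the 4 Ncr1 barcodes, from 5 UMIs, and at 240 CPM (176 to 320) in the 43 others poor in myeloid RNA, with overlapping intervals. The log2 ratio of Klrc1 was 10.10, against 7.79 with barcodes weighted equally, and that of Klrd1 was 8.54, against 6.60 with at least 5 rule UMIs.

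Cytokine genes were led by chemokines. Ccl5, which attracts T cells and monocytes, had 520 UMIs in 40 T barcodes against 145 UMIs in 19 others (2094 CPM against 27.1 CPM, ratio 77.2, 64.1 to 93.4). Ccl4 had 240 UMIs in 32 T barcodes against 64 in 11 others, and Ccl3 90 UMIs in 22 against 29 in 8, both chemokines that attract immune cells. Ifng (chromosome 10, 118441046 to 118445892) had 46 UMIs in 19 T barcodes against 2 UMIs in 1 other barcode, 185 CPM against 0.374 CPM (ratio 495, 129 to 4210), and no UMI in the whole RC library. After thinning, 21.4% of T barcodes and none of the others held an Ifng UMI. Xcl1, a chemokine that draws cross-presenting dendritic cells, was uneven: its 110 UMIs lay in 12 T barcodes, with 63.6% of them in 3, against 11 UMIs in 1 other barcode. Tnf, at 2 UMIs against 79, and Tgfb1, at 32 UMIs against 819, were not higher in T barcodes, and Il2, Il10, Il21, Il4, Il17a and Lta had no UMI in them. Of 8 cytokine genes compared, 5 were at least 2-fold higher and none was lower. Ifng, Xcl1 and Ccl3 reached 40 UMIs only through the T barcodes and had to be higher, so this count is a description. The size of these ratios depended on the processing. With barcodes weighted equally the log2 ratio was 4.99 for Ccl5, against 6.27, and 6.52 for Ifng, against 8.95, while it was 4.52 for Ccl4 and 5.79 for Xcl1, against 6.33 and 7.75. Under the cell filter of the study Ccl5 was at 7.76 and Ccl4 at 9.21.

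**Figure D3:**
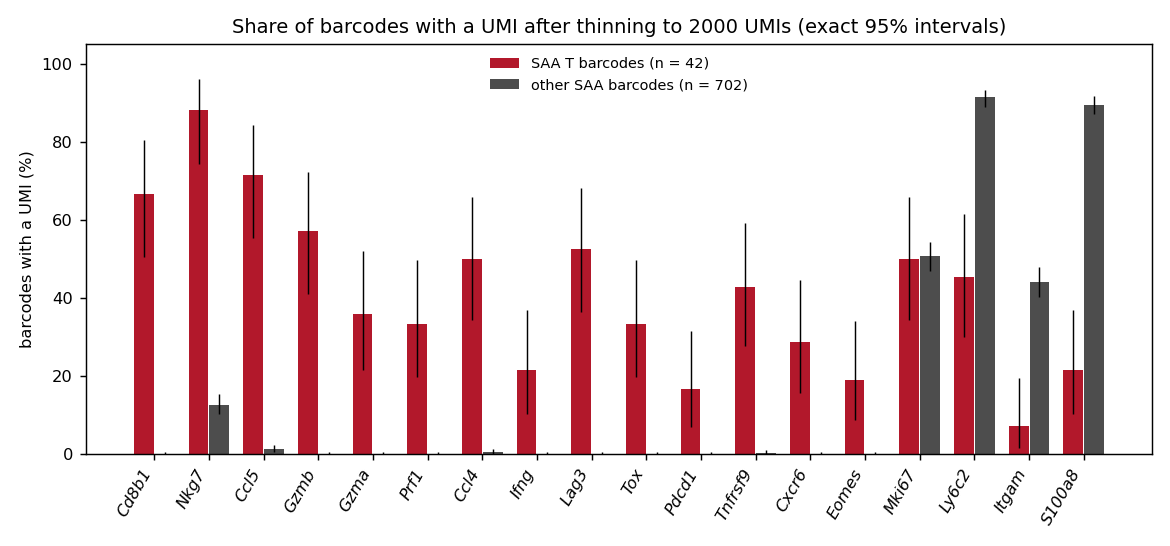
Bars give the percent of barcodes with a UMI of each gene after thinning to 2000 UMIs, for 42 SAA T barcodes (red) and 702 other SAA barcodes (gray), with exact Clopper-Pearson 95% intervals. Cytotoxic and inhibitory genes were found in 16.7 to 88.1% of T barcodes and, apart from Nkg7 at 12.5%, in at most 1.14% of the others. Mki67 was found in 21 of 42 T barcodes and 50.6% of the others, and Ly6c2, Itgam and S100a8 were found in fewer T barcodes than other barcodes.

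Among receptors of T cell activation, Il2rb and Tnfrsf9 were found in most T barcodes. Il2rb, the beta chain of the IL-2 and IL-15 receptors, had 155 UMIs in 40 T barcodes against 6 UMIs in 2 others (ratio 556, 250 to 1539). Tnfrsf9 (4-1BB), a co-stimulatory receptor induced by TCR signals, had 91 UMIs in 29 T barcodes against 3 UMIs in 3 others. Icos had 9 UMIs and Klrg1 11, both with at most 1 UMI in the others. The early activation marker Cd69 had only 8 UMIs in 6 T barcodes, and Cd44, which myeloid cells also carry, was lower in T barcodes (21 UMIs against 1245, log2 ratio -1.46). Of 9 activation genes compared, 6 were higher and 1 was lower, beside 15.1% and 15.8% over all genes. Il2rb, Tnfrsf9 and Cd28 reached 40 UMIs only through the T barcodes and had to be higher, so this count is a description. The log2 ratio of Il2rb was 9.12, against 7.00 with at least 5 rule UMIs, and that of Tnfrsf9 was 9.35, against 8.63.

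Lag3 (chromosome 6, 124904361 to 124911705), an inhibitory receptor that binds MHC class II, had 108 UMIs in 31 T barcodes, at most 10 in one, against 1 UMI in the other SAA barcodes and none in the RC library (435 CPM against 0.187 CPM). The log2 ratio of Lag3 was 11.18, against 8.73 with barcodes weighted equally. Tox, a nuclear factor of exhausted T cells, had 53 UMIs in 26 T barcodes against 1 UMI. Pdcd1, which encodes PD-1, had 29 UMIs in 17 T barcodes and none in others (at least 208-fold higher). Havcr2 (TIM-3) had 26 UMIs in 17 T barcodes against 2 UMIs, Tigit had 21 in 18 against 0, and Cd160 had 26 in 18 against 2. Ctla4 had 3 UMIs in T barcodes and none in others, which is at the floor. Of the 51 T barcodes, 33 (64.7%, 50.1 to 77.6) held at least 2 of Pdcd1, Lag3, Havcr2, Tigit and Tox, and 9 held none. Of the 31 Lag3 barcodes 23 held Gzmb, 22 held Prf1 and 16 held Ifng. Among the 47 T barcodes poor in myeloid RNA, Lag3 was at 502 CPM (399 to 624) in those with Gzmb and 450 CPM (271 to 703) in those without. Pdcd1 was at 99.2 CPM (56.7 to 161) with Gzmb and 284 CPM (147 to 497) without, and Tox at 217 CPM (151 to 302) and 403 CPM (235 to 645). Only 4 of the 16 genes of the exhaustion list reached 40 UMIs, and all 4 were higher, the fourth being Entpd1 at 11 UMIs against 76. Lag3, Tox and Tnfrsf9 reached this minimum only through the T barcodes and had to be higher, so the count is a description.

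Factors of effector T cells were present, and genes of naive and memory cells were mixed. Eomes, a T-box factor of cytotoxic cells, had 37 UMIs in 16 T barcodes and none in others, and Tbx21 (T-bet) had 13 UMIs in 10 against 2 UMIs in 1. Runx3, which drives the CD8 fate, had 50 UMIs in 27 T barcodes against 53 in 50 others (ratio 20.3, 13.5 to 30.5). Id2 was 3.92-fold higher (3.15 to 4.85), Ikzf3 had 38 UMIs against 3 and Bhlhe40 24 against 54. In the list of T cell factors 7 of 11 genes compared were at least 2-fold higher and Zeb2 was lower. Over all genes 15.1% were higher and 15.8% lower. Tox and Ikzf3 reached 40 UMIs only through the T barcodes and had to be higher, so this count is a description. Tcf7, Il7r and Ccr7, which mark naive and memory T cells, had no UMI in any T barcode, nor had Id3. A count of 0 among the UMIs of all T barcodes allows up to 14.9 CPM (exact Poisson), so these RNAs were not detectable at this depth and cannot be called absent. Lef1, a factor of naive T cells, had 2 UMIs in T barcodes and none in other SAA barcodes. Of the 10 genes in the naive and memory list 3 were compared, of which 1 was lower, and Klf2 and Satb1 were higher, at 34 UMIs against 278 and 24 against 70. S1pr1, the receptor for leaving tissues, had 8 UMIs in 6 T barcodes. Cd27, of the same list but not among the 3 compared, went the other way from the genes at 0. Its log2 ratio was 9.60, against 6.92 with barcodes weighted equally. It had 31 UMIs in 18 of the 36 CD8 T barcodes poor in myeloid RNA.

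Among homing genes, Cxcr6, a receptor of tissue-resident and effector T cells, had 48 UMIs in 20 T barcodes against 1 UMI, and Cxcr3, the receptor for chemokines induced by interferon gamma, had 15 in 10 against 1. The integrin chains Itga4 and Itgal, which bind VCAM-1 and ICAM-1, were 3.78-fold (3.13 to 4.53) and 3.12-fold (2.41 to 3.99) higher, and Selplg, the ligand of P-selectin, was 2.69-fold higher (2.11 to 3.39). Ccr2 and Cxcr4 were lower, at 16 UMIs against 2168 and 8 against 795. Of 11 homing genes compared, 4 were at least 2-fold higher and 3 lower, beside 15.1% and 15.8% over all genes. Cxcr6 reached the UMI minimum only through the T barcodes and had to be higher, so this count is a description. The log2 ratio of Cxcr6 was 10.01, against 7.18 with barcodes weighted equally.

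T barcodes and other SAA barcodes had close levels of G2 and M phase genes, while S phase genes were somewhat higher in T barcodes. Mki67 had 135 UMIs in 28 T barcodes against 2812 UMIs in 518 others, 544 CPM against 526 CPM, a ratio of 1.03 (0.863 to 1.23). Top2a, the topoisomerase of dividing cells, had a ratio of 1.32 (1.15 to 1.51) and Hmgb2 of 1.04 (0.964 to 1.11). Of 51 genes of G2 and M phase compared, 2 were at least 2-fold higher (Nek2 and G2e3) and 2 lower (Gas2l3 and Ttk), and the median log2 ratio was 0.27 against 0.14 over all genes. The median of the S phase genes was 0.54, while 7 of the 41 compared were at least 2-fold higher, a share close to the 15.1% over all genes, and 1 (Ccne2) was lower. Summed over the list, S phase genes were at 4580 CPM against 3100 CPM, a ratio of 1.48 (1.39 to 1.57). The ratio for G2 and M phase genes was 1.17 (1.13 to 1.21). Median shares per barcode were 0.484% against 0.216% for S phase, and 0.726% against 0.842% for G2 and M phase. Mcm6, a subunit of the replicative helicase, had 88 UMIs in 37 T barcodes against 643 UMIs in 295 others, a ratio of 2.95 (2.33 to 3.69). Rpa2, which coats single-stranded DNA, was 3.87-fold higher (2.60 to 5.60), and the helicase gene Hells 2.31-fold higher (1.71 to 3.07). Cycle genes of both lists gave a median of 1.55% of the UMIs of a T barcode (0.0971 to 4.05) and 1.31% of those of another SAA barcode. After thinning, 40 of 42 T barcodes (95.2%) and 600 of 702 other SAA barcodes (85.5%) held at least 5 UMIs of these genes, with medians of 30 and 27 UMIs. The other SAA barcodes are themselves a mix of myeloid cells in which these genes are high, and the RC library held 4 T barcodes only, so these levels have no resting T cells beside them.

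RNA of the sort gate proteins was lower in T barcodes, and most of them held no Itgam UMI. Ly6c2 (chromosome 15, 75108158 to 75111970) had 156 UMIs in 23 T barcodes against 15551 UMIs in 720 of the other SAA barcodes, 628 CPM against 2910 CPM. In the 47 T barcodes poor in myeloid RNA it had 65 UMIs in 19, which is 320 CPM. Itgam, which encodes CD11b, had 23 UMIs in 8 T barcodes against 1594 UMIs in 582 others, and in the 47 it had 6 UMIs in 4. Ly6c1 had 9 UMIs in 2 T barcodes. Of the 47, 2 (4.26%) held RNA of both CD11b and Ly6C, against 564 of the 774 other SAA barcodes (72.9%), and 26 (55.3%) held neither. Protein on the cell surface was not measured in these files, and which T cells passed the gate on protein was not tested. Ptprc, the pan-leukocyte protein CD45, was 3.14-fold higher in T barcodes (2.77 to 3.53), and Ly6g had 11 UMIs in 4 T barcodes, all 4 rich in myeloid RNA.

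Interferon-inducible and MHC class II genes were lower in T barcodes than in other SAA barcodes. None of the 16 interferon-gamma-inducible GTPases compared was at least 2-fold higher in T barcodes and 7 were lower, with a median log2 ratio of -0.94. Gbp2, a guanylate-binding protein, had 33 UMIs in 10 T barcodes against 2436 UMIs in 550 others, and the log2 ratio was -1.78 with all T barcodes and -3.21 in the 47 poor in myeloid RNA. Iigp1 had 5 UMIs against 2017. In the interferon response list 10 of 15 genes compared were lower and none was higher. Ly6e was at 644 CPM against 2161 CPM, and Ly6a (Sca-1) at 640 CPM against 699 CPM. All 7 MHC class II genes were lower (median log2 ratio -3.70), with Cd74 at 27 UMIs against 7535. MHC class I genes differed little. Of 12, only H2-Q7 passed 2-fold, at 600 CPM against 280 CPM, and with groups scaled by the median of gene ratios its log2 ratio was 0.96, which is under 2-fold, while H2-K1 had a ratio of 1.07 (0.977 to 1.17).

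**Figure D4:**
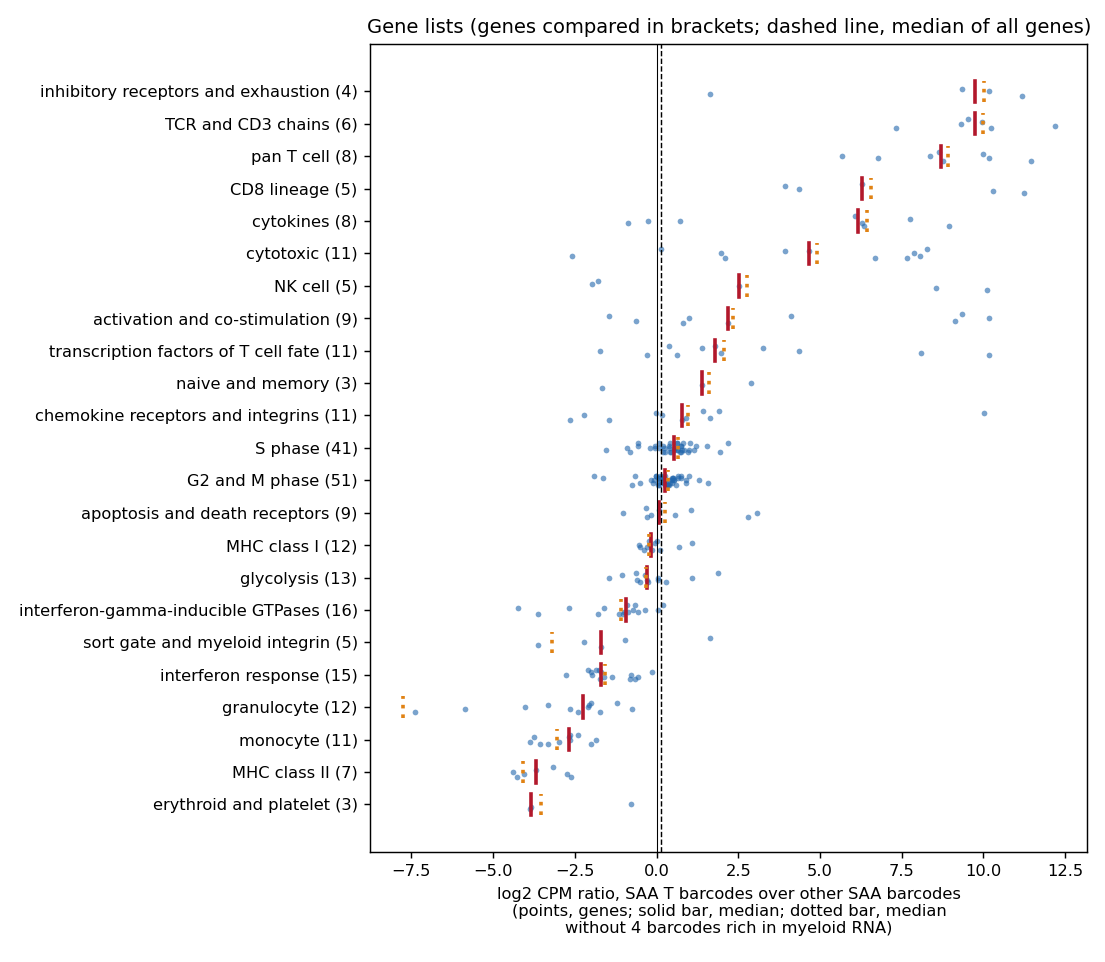
For each gene list with at least 3 genes compared, points give the log2 CPM ratio of each gene, SAA T barcodes over other SAA barcodes, with the median over all 51 T barcodes (solid bar) and without the 4 rich in myeloid RNA (dotted bar). The dashed line is the median over all 8005 genes (0.14): inhibitory, T cell and cytotoxic lists lie to its right, the cycle lists lie close to it, and MHC class II, monocyte and granulocyte lists lie to its left, with the granulocyte median moving to -7.76 without those 4 barcodes.

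Genes of metabolism and cell death were mixed, and the glycolysis list had shares close to those over all genes. Of 13 glycolysis genes, Ldha (lactate dehydrogenase) and Pfkp (phosphofructokinase) were higher, at ratios of 2.13 (1.82 to 2.50) and 3.70 (2.77 to 4.88), while Hk2 and Gpi1 were lower and Gapdh was at 971 CPM against 936 CPM. In the apoptosis list, Bcl2l11 (BIM), which promotes death of activated T cells, had 47 UMIs in 25 T barcodes against 121 in 96 others (ratio 8.36, 5.84 to 11.8). Tnfrsf1b, a receptor of TNF, was 2.08-fold higher (1.35 to 3.10), Tnfrsf1a was lower, and Fas had 3 UMIs against 79. Scaled by the median of gene ratios, Ldha and Tnfrsf1b were under 2-fold, with log2 ratios of 0.95 and 0.92.

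RNA of other lineages was low in most T barcodes. All 11 monocyte genes and 11 of 12 granulocyte genes compared were at least 2-fold lower. Even so, the T barcodes together held 3854 UMIs of S100a8, of which 10 were in the 47 poor in myeloid RNA. The 10 genes lowest in T barcodes, ranked by the upper bound of the ratio among genes with at least 100 UMIs, were Elane (2 UMIs against 7146), Mpo (2 against 2480), Saa3 (1 against 1423), Prtn3 (25 against 8686), Fn1 and Ctsg (0 against 651 and 639), and H2-Aa, H2-Ab1, H2-Eb1 and Cd74. Of B cell genes, Cd79a, Ms4a1, Jchain and Pax5 had no UMI, and Ighm was at the same level as in other SAA barcodes (80.6 CPM against 79.0 CPM). Siglech, Flt3, Xcr1 and Clec9a of dendritic cells were at 0. Itgax, found on activated T cells as well, had 12 UMIs in 8 T barcodes against 6. Hba-a1 and Hbb-bs had 1 and 2 UMIs against 315 and 613, and Hdc, the progenitor and mast cell gene compared, had 3 against 329. Kit, Cd34 and Gata2 were at 0 in T barcodes.

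The 15 genes highest by the lower bound of the ratio among those with at least 100 UMIs were 5 of the 6 rule genes (Cd3g had too few UMIs), Cd8b1, Cd8a, Thy1, Lag3, Il2rb, Gzmb, Xcl1, Gzma and the 2 that no list held, Nrgn and Gimap4. Gimap4, of a GTPase family of lymphocytes, had 136 UMIs in 40 T barcodes against 4 UMIs in 2 others. Nrgn, known as a calmodulin-binding protein of neurons, had 143 UMIs in 17 T barcodes against 1 UMI, with at most 37 in one, and 54.5% of the UMIs lay in 3 barcodes. Of the 17, 16 held Lag3 and 9 held Xcl1, and none held Ncr1.

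The T barcodes also differed among themselves. Among the 47 poor in myeloid RNA, 24 held Mki67 and 23 did not, at median depths of 5606 and 2193 UMIs. The CPM intervals of such splits leave out the spread between barcodes. Gzmb was at 1655 CPM (1447 to 1884) in those with Mki67 and 594 CPM (422 to 812) in those without. Of its 228 UMIs in those with Mki67, one barcode held 37 and another 36. Lgals1 was at 1677 CPM in those with Mki67 and 761 CPM in those without. The chemokine genes Ccl4 and Xcl1 ran the other way. Ccl4 was at 661 CPM (532 to 811) with Mki67, in 14 of 24 barcodes, and 2147 CPM (1808 to 2533) without, in 17 of 23. Xcl1 was at 43.6 CPM (16.0 to 94.8) with Mki67, in 3 barcodes, and 1584 CPM (1294 to 1919) without, in 9, so its values rest on few barcodes. Among inhibitory and exhaustion genes, the intervals with and without Mki67 overlapped for Pdcd1, Lag3 and Havcr2, and those of Tox lay just apart. Pdcd1 was at 87.1 CPM (45.0 to 152) with Mki67 and 244 CPM (139 to 396) without, and Tox at 181 CPM (117 to 268) and 411 CPM (271 to 598). Lag3 was at 515 CPM (402 to 650) with Mki67 and 442 CPM (296 to 634) without, and Havcr2 at 145 CPM (88.7 to 224) and 76.1 CPM (24.7 to 178). Cd8b1 was at 820 CPM in those with Mki67 and 822 CPM in those without. As a Mki67 UMI is found more often in a deep barcode, the split follows depth as well, and the part of depth in these values was not tested.

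Across the same 47 barcodes, Gzmb and Ly6c2, each per UMI, had a Pearson correlation of 0.64 and a Spearman correlation of 0.43. Genes of G2 and M phase and Gzmb had 0.31 and 0.26, and genes of G2 and M phase and the UMIs per barcode 0.39 and 0.43. These points are cells of 1 library and share its depth, so the correlations are given with no test. Barcodes with Ly6c2 RNA held 1807 CPM (1539 to 2109) of Gzmb and those without it 927 CPM (759 to 1121), at median depths of 3584 and 3660.5 UMIs, and Pdcd1 was at 89.8 CPM (38.8 to 177) with it and 175 CPM (107 to 270) without it.

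**Figure D5:**
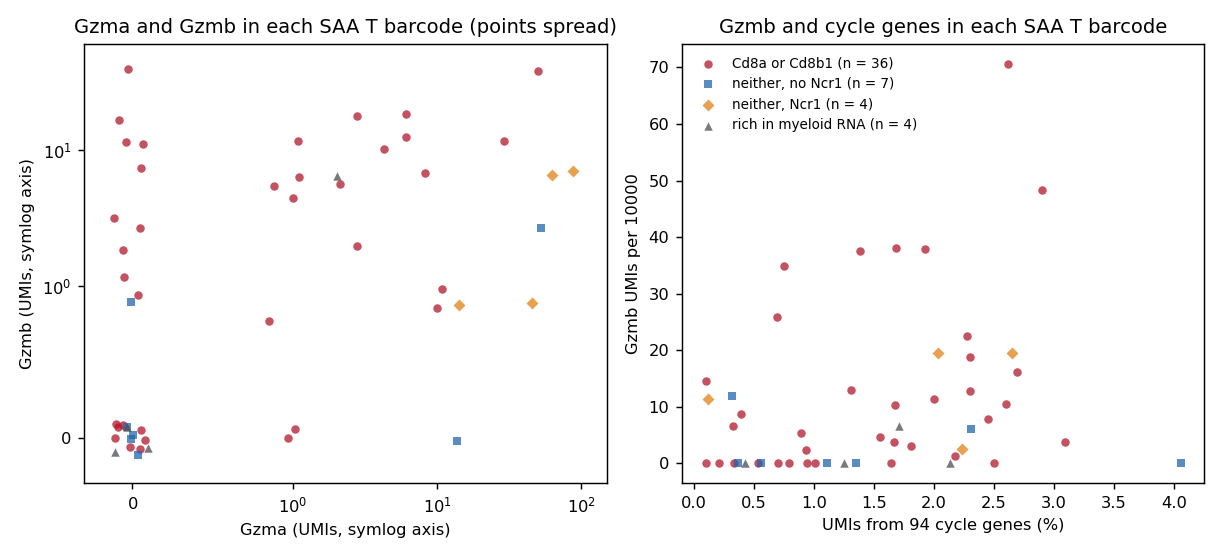
Each point is an SAA T barcode: on the left UMIs of Gzma (x) and Gzmb (y), both on symlog axes with points spread, and on the right the percent of UMIs from 94 cycle genes (x) and Gzmb UMIs per 10000 UMIs (y). Colors and shapes separate 36 barcodes with Cd8a or Cd8b1, 7 with neither and no Ncr1, 4 with Ncr1 and 4 rich in myeloid RNA. The Ncr1 barcodes held 14 to 93 Gzma UMIs, while 18 of the 36 CD8 barcodes held any Gzma, and Gzmb was found at low and at high cycle shares.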

How the data were processed

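Single-cell RNA sequencing of sorted marrow was analysed as 2 libraries, SAA and RC, each pooled from 3 mice. Both deposited matrices hold UMI counts (genes by barcodes), which the authors made from Chromium 5′ libraries with Cell Ranger 6.0.1 against mm10, without normalization (31053 genes). All deposited barcodes were used, with no filter on genes. UMIs were summed over T barcodes and over all other SAA barcodes, genes with at least 40 UMIs were compared, and a call was a CPM ratio past 2-fold, with a floor of 3 UMIs. Intervals are 95% (Poisson, conditional binomial, Clopper-Pearson) and were tested on simulated counts. Those of CPM and of ratios leave out the spread between barcodes. As cells are not replicates, no p-value was computed. The T barcode rule and the 28 gene lists were chosen with earlier results of these data known. Of 377 listed symbols, 5 were not matched and are not used here.

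Named genes are those of the rule and the gate, the 5 genes of each list with the most UMIs in T barcodes, list genes at 0, the 15 highest and 10 lowest genes among those with at least 100 UMIs, and the 5 commonest variable segments. Other list members were named after their values had been seen. Coordinates come from a GRCm38 annotation, which may not be the release used by the authors. Alternatives changed the minimum of UMIs, cell filter, scaling, weighting and gene minimum, or left out barcodes rich in myeloid RNA or holding Ncr1. Software was Python 3.11.15, numpy 2.4.6, scipy 1.17.1, pandas 2.3.3 and matplotlib 3.10.9. Some list members are not reported here.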

Additional observations from a re-analysis of the deposited data

How the results depend on the processing

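The share of T barcodes depended on the minimum of rule UMIs. With 1 UMI it was 10.2% in the SAA and 4.64% in the RC library, where the UMI was that of Cd3d in 33 RC barcodes, and with 5 UMIs it was 0% in the RC library. The CD8 share of SAA T barcodes was 45.2% with 1 UMI and 87.8% with 5 UMIs. Genes at least 2-fold higher numbered 630 when 100 UMIs per gene were asked for, where fewer genes were compared, against 1205. The median log2 ratio of G2 and M phase genes was 0.43 with 5 rule UMIs and 0.13 when groups were scaled by the median of gene ratios, against 0.27. Under the cell filter of the study, Hba-a1 and Hbb-bs had log2 ratios of 4.45 and 3.87 in place of -3.87 and -3.83, each from at most 2 UMIs in T barcodes, and the cause was not tested. No other named gene past 2-fold changed direction under the alternatives (the one without Ncr1 barcodes was chosen once the data were known). The median of the cytotoxic list was 2.94 with 100 UMIs per gene, against 4.66. Of 129 named genes, 69 had a ratio that moved by over 1.5 times under at least 1 alternative, Cd8a and Thy1 among them, with log2 ratios of 11.25 and 11.44 against 8.29 with barcodes weighted equally and 8.51 with 5 rule UMIs. Calls past 2-fold were also lost for Gbp7 (-0.83 with barcodes weighted equally) and Il2rg (0.86 scaled by the median of gene ratios). Of 1205 genes 2-fold higher, 1138 were among the 1497 called without barcodes rich in myeloid RNA. No paired analysis was possible because each condition had 1 library and no result came from a test.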

Other observations

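Immunoglobulin kappa RNA was found in some T barcodes. Igkc had 13 UMIs in 6 SAA T barcodes, all poor in myeloid RNA, and none in the other 774 SAA barcodes, while the RC library held 1065 UMIs of it. Of the 6, 4 held Gzmb, 4 held Lag3 and none held Prf1. Cd79a, Ms4a1 and Jchain were at 0 in T barcodes, Cd79b had 1 UMI and Ighm had 20 UMIs in 13 of them.

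The other SAA barcodes held cytotoxic RNA in very few places. Their 91 UMIs of Gzma lay in 3 barcodes, their 22 UMIs of Gzmb in 5, their 8 UMIs of Prf1 in 1 and their 4 UMIs of Ncr1 in 1. Nkg7 was different, with 676 UMIs in 191 of them (24.7%) and 1002 UMIs in the RC library.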
